A study of Mus musculus with 40 samples.

Results

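The protein subunits of the respiratory chain and of the ATP synthase were taken by gene symbol, with assembly factors and 1 symbol ending in "-ps" left out. The rule found 97 of the 26906 genes measured. Of these, 84 lie in the nuclear genome (37 of complex I, 4 of complex II, 8 of complex III, 18 of complex IV and 17 of complex V, the ATP synthase) and 13 are all the protein genes of mitochondrial DNA (7 of complex I, 1 of complex III, 3 of complex IV and 2 of complex V). RNA was measured in 40 libraries of CGR8 cells, a mouse embryonic stem cell line of strain 129. The cells were grown as floating aggregates in N2B27, a medium free of serum, to which Activin-A, Fgf2 and KSR had been added, and were collected at days 3, 4, 5, 6 and 7. At each day 4 libraries came from untreated aggregates and 4 from aggregates given XAV939, an inhibitor of tankyrase that lowers Wnt/beta-catenin signalling, from 0 to 72 h, so the 10 groups differ by day and arm and share the line, the medium and its supplements. Only the untreated libraries carry a note in their titles that matrigel was absent, so an effect of matrigel and one of XAV939 cannot be told apart. Nothing in the labels says whether the libraries of a group came from separate cultures, and p-values then measure only the spread between these libraries.

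The chain passes electrons from NADH (complex I) and succinate (complex II) through complex III to oxygen at complex IV, and complexes I, III and IV pump protons across the inner mitochondrial membrane; the ATP synthase uses the proton gradient to make ATP. Complexes I, III, IV and V are mosaics of subunits encoded in the nucleus, made in the cytosol and imported, and of core subunits encoded in mitochondrial DNA, which is transcribed as long precursors from both strands and then cut into single RNAs. Complex II is encoded in the nucleus alone. Pluripotent cells are known for relying strongly on glycolysis, and several nuclear subunits exist as paralogues used in muscle, testis or low oxygen.

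The mitochondrial genes did not all yield usable counts, and their sequence shows where they differ. In mm10, mt-Co2 (chrM:7013-7696) has a copy in the nuclear genome, Gm28661 on chromosome 1, in which 99.5% of the windows as long as a read (81 bases) are identical. The middle of mt-Cytb (chrM:14145-15288), in contrast, differs from its nearest copy, Gm11410 on chromosome 4, and no window of it is identical there. Both pairs are shown over 1 read length, with capitals at the bases that differ:
mt-Co2, chrM:7313-7393, plus strand: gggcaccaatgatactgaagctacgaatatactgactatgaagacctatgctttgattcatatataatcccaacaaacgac
Gm28661, chr1:24615185-24615265, minus strand: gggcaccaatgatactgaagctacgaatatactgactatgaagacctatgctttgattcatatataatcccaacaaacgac
mt-Cytb, chrM:14676-14756, plus strand: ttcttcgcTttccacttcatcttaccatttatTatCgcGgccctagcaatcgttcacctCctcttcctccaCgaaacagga
Gm11410, chr4:80004520-80004600, plus strand: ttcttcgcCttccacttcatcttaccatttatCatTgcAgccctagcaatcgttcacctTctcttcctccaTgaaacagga
The first pair had 0 differences and the second 6. The shares of identical windows were also high for mt-Atp6 (99.5%), mt-Co3 (99.9%), mt-Nd3 (97.8%) and mt-Nd4l (98.6%), lower for mt-Nd4 (61.3%), mt-Co1 (12.2%), mt-Nd2 (5.11%) and mt-Nd5 (0.115%), and 0 for mt-Nd6. No copy of mt-Nd1 was found among annotated transcripts, and copies outside these were not searched for. The genes with nearly all windows identical had few counts: mt-Co2 had 2 to 49 counts per library, mt-Co3 3 to 31, mt-Atp6 2 to 29, and mt-Nd3 and mt-Nd4l 0 to 4. The short mt-Atp8, for which no share was computed, also had 0 to 4, whereas mt-Co1 had 125378 to 782824 and mt-Cytb 55261 to 241870. None of the nuclear copies is among the genes measured. How reads that match both places were counted is not given in the sources used here, and its part in the low counts was not tested. The levels of mt-Co2, mt-Co3, mt-Atp6, mt-Nd3, mt-Nd4l and mt-Atp8 are therefore not compared with other genes below.

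Some nuclear subunit genes hold in their promoters the motif of NRF1, a factor known to activate genes of the respiratory chain. RefSeq promoters (GRCm38.p6, 250 bases before to 50 after the gene start) matched 68 of the 84 nuclear members. The NRF1 motif GCGCATGCG, searched on both strands, was found in 8 of them (11.8%) and in 1.95% of 27025 genes. It lay before the RefSeq gene start in 6 members, shown here 5′ to 3′ on the strand of the gene with the motif in capitals:
Atp5g2, chr15:102671056-102671114: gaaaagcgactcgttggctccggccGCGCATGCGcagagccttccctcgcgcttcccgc
Atp5k, chr5:108434416-108434474: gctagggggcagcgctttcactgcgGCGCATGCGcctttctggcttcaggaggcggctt
Cox6a1, chr5:115349087-115349145: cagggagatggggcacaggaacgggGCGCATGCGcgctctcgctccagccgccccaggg
Ndufa11, chr17:56717677-56717735: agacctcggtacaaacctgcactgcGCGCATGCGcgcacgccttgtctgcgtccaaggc
Atp5l, chr9:44920950-44920992: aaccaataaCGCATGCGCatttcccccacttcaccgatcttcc
Ndufa8, chr2:36049339-36049372: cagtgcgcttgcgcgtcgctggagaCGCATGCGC
In Atp5l and Ndufa8 the motif lies on the opposite strand and is shown as its reverse complement. In the first 4 the next base completes the motif on the opposite strand as well. The stretches of Atp5g2 and Ndufa8 lie inside the genes as annotated in GENCODE M21 (chr15:102662864-102672352 and chr2:36036326-36049406). That of Atp5k overlaps its annotated gene (chr5:108433244-108434448). Of the remaining members with a match, Uqcr11 held it across the start and Uqcrc1 after it. Searched on both strands, AAGATGGCG, a motif of YY1, was found in 7 members (10.3%, against 1.64% of all genes), CCGGAAGT, a motif of ETS factors, in 5 (7.35% against 4.31%), GGGGCGGGG, a motif of Sp1, in 11 (16.2% against 12.9%), and ACGTGC, a motif of hypoxia-inducible factors, in 4 (5.88% against 6.68%). Atp5j, of the peripheral stalk of the ATP synthase, has more than 1 RefSeq promoter, and that at chr16:84835576-84835875 holds no YY1 motif. The motif lies before another RefSeq start, which is inside the gene as annotated in GENCODE M21 (chr16:84827866-84835625). Atp5j was the 1 member with the YY1 motif before a RefSeq start:
Atp5j, chr16:84835031-84835089: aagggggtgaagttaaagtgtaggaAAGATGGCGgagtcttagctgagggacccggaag
A match describes letters in these windows and is not evidence of a bound site.

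Libraries held 30197759 to 44086019 counts on genes (median 35737152). Levels are in CPM, a count scaled to the total of its library, here adjusted by the trimmed mean of M-values (TMM). In untreated aggregates the pluripotency factor Pou5f1 stood at 788 ± 88.3 CPM (SD, n = 4) at day 3 and at 4.25 at day 7. Sox2, of the same marker list, rose from 23.0 to 66.1. Sox1, an early neural factor, went from 0.247 at day 3 to 38.3 at day 5 and 22.5 at day 7. Median sums of marker lists went from 290 to 528 CPM for neural progenitors. They went from 1.75 to 156 for paraxial mesoderm and from 1.21 to 34.8 for definitive endoderm. Red cell markers stayed below 1 CPM in sum. 1 library stood apart in the members and is given beside the results it touches: day 6 untreated library 3 had the lowest mitochondrial share of all 40 libraries (0.915%) and the highest nuclear share (1.61%), 80 of its 82 tested nuclear members lay above their group mean, and its short transcripts (under 1000 bases) were raised against long ones (over 3000 bases) by 0.52 log2 units relative to its group. In the other 3 libraries of that group this difference lay between -0.28 and -0.14.

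The mitochondrial protein genes together took more reads than the nuclear subunit genes in 39 of the 40 libraries. Since mt-Co2, mt-Co3, mt-Atp6, mt-Nd3, mt-Nd4l and mt-Atp8 had at most 49 counts in any library, their part in this share is close to none. The share and the ratio below are in effect those of the other mitochondrial genes. At day 3 the 13 mitochondrial genes took 1.83% to 5.46% of a library's counts (median 3.22% of 8 libraries), and at day 7 1.21% to 2.74% (median 2.44%). The days between had medians of 2.82%, 2.67% and 2.68%. The ranges overlapped at all days. The 84 nuclear genes took 1.04% to 1.44% at day 3 (median 1.14%), with medians of 1.0%, 0.971% and 0.906% at days 4, 5 and 6, and 0.809% to 0.908% at day 7 (median 0.843%). All 8 libraries of day 7 lay below all 8 of day 3. The log2 ratio of mitochondrial to nuclear counts had medians of 1.48, 1.53, 1.40, 1.54 and 1.53 from day 3 to day 7, with wide ranges at each day (0.663 to 2.14 at day 3 and 0.461 to 1.71 at day 7). These are bulk libraries, in which fewer cells of a type and less RNA per cell cannot be told apart.

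**Figure D1:**
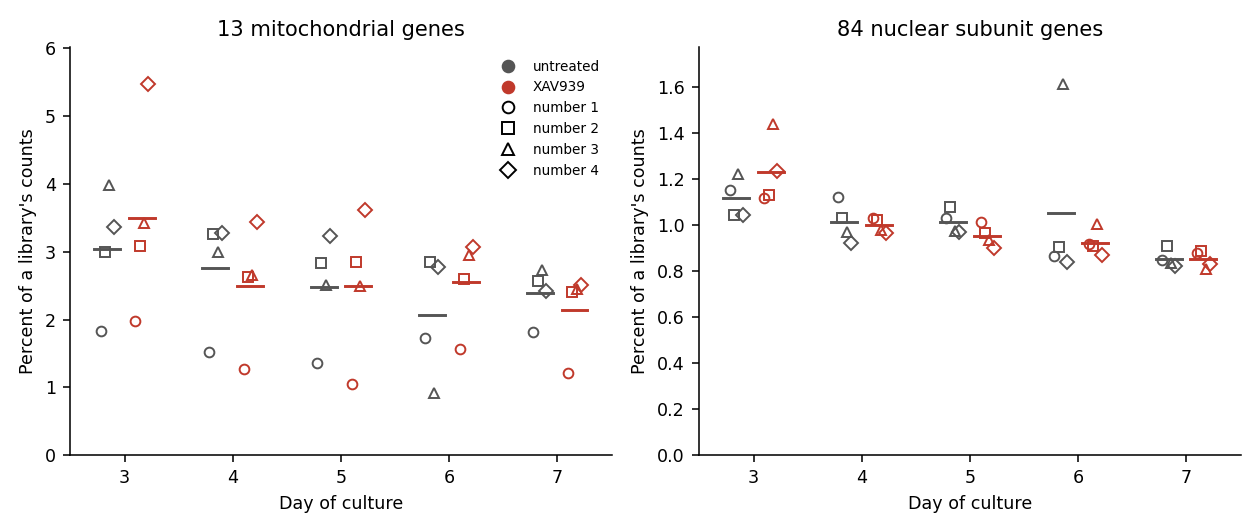
Percent of each library's counts taken by the 13 mitochondrial genes (left) and the 84 nuclear subunit genes (right) by day of culture; each point is a library, lines are group means, colours give the arm and shapes the replicate number. The nuclear share at day 7 (0.809% to 0.908%) lies below that at day 3 (1.04% to 1.44%), day 6 untreated library 3 stands apart in both panels, and circles (number 1) lie low in the left panel. Of the 13 genes, mt-Co2, mt-Co3, mt-Atp6, mt-Nd3, mt-Nd4l and mt-Atp8 add almost no counts.

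Per kilobase of transcript, the abundant mitochondrial RNAs stood above every nuclear subunit. The mean level over the 40 libraries was 7010 CPM per kilobase for mt-Co1, the catalytic subunit of complex IV, then 4870 for mt-Nd1, 3680 for mt-Cytb, 2070 for mt-Nd2, 1550 for mt-Nd5, 1050 for mt-Nd4 and 43.1 for mt-Nd6, the only protein gene on the light strand. The highest nuclear members were Atp5b, the catalytic beta subunit of the ATP synthase (815), Atp5a1, its alpha subunit (408), and Cox6c of complex IV (403). The tested nuclear members had medians per kilobase of 57.1 for complex I, 90 for complex II, 95 for complex III, 119 for complex IV and 236 for complex V. The lowest members were the tissue-restricted paralogues Cox8b (0.00163), Cox8c (0.0456) and Cox6a2 (0.219). These values rest on annotated transcript lengths, and that of Atp5g1 (22.0 CPM per kilobase) on a transcript of 4660 bases. The level of mt-Nd4 is uncertain, since 61.3% of its windows are identical in a nuclear copy. The libraries were poly(A)-selected, and the part of this in the level of mt-Nd6 was not tested.

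From day 3 to day 7 nuclear subunit RNAs fell in all 5 complexes. In untreated aggregates 53 of the 82 nuclear members that passed the filter on low counts were lower at day 7 and 0 higher (edgeR quasi-likelihood test, Benjamini-Hochberg adjusted p below 0.05), where 32.6% of the 16878 genes tested were lower and 34.7% higher. In XAV939 aggregates 68 of 82 were lower and 0 higher, where 34.1% of all genes were lower and 36.8% higher. DESeq2 also called 0 higher in each arm. The members' median log2 fold change was -0.53 untreated and -0.72 with XAV939, against 0.03 and 0.04 over all genes. In 62 members untreated and 69 with XAV939 all 4 libraries of day 7 lay below all 4 of day 3, as did 32.1% and 31.0% of all genes. Cox8b and Cox8c did not pass the filter.

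**Figure D2:**
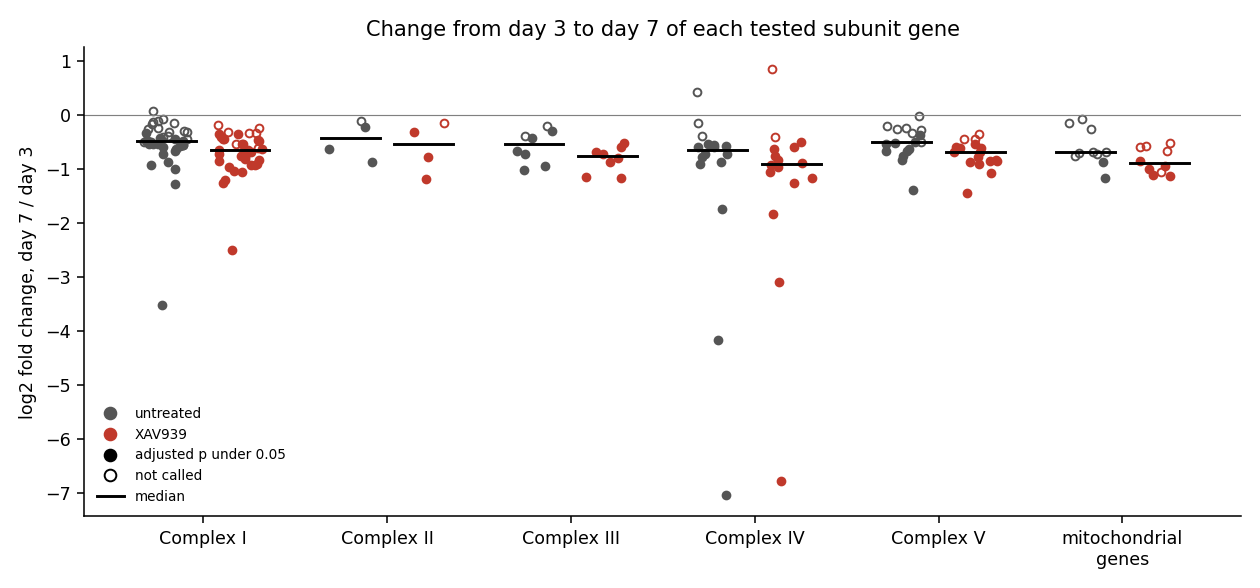
log2 fold change from day 3 to day 7 (edgeR) of each tested subunit gene, grouped by complex for the nuclear genes and together for the 10 mitochondrial ones; filled points passed the adjusted p threshold, bars are medians and colours give the arm. Nearly all points lie below 0 in both arms; the lowest points are Cox7b2, which had no counts at day 7, so that its fitted value is no bound.

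The number of members called moved with the scaling of the libraries, and fold changes over all genes moved with transcript length. With total counts in place of TMM the median of all genes rose to 0.18 untreated and 0.26 with XAV939, the split of all genes with XAV939 became 7357 higher to 4456 lower (6203 to 5758 with TMM), and 37 and 53 nuclear members were lower, and Cox4i2 was called higher with XAV939. Relative to the median of all genes the nuclear median was -0.55 and -0.76 with TMM and -0.54 and -0.75 with total counts. All genes under 1000 bases had medians of -0.17 and -0.22, and those over 3000 bases of 0.16 and 0.24. The 56 nuclear members under 1000 bases had medians of -0.53 and -0.74, and the 26 of 1000 bases or more, most of them shorter than 3000, of -0.52 and -0.71. With offsets for length and GC content and a block for the replicate number, 60 and 72 were lower, with medians of -0.43 and -0.59. The shares of all genes lower under that fit are not given here.

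In complex I, 21 of 37 nuclear members were lower untreated and 29 with XAV939. The furthest was Ndufa4l2 (chr10:127514967-127517154), a paralogue of Ndufa4 known to be induced in low oxygen. Its untreated libraries stood at 40.7, 24.6, 15.2 and 16.7 CPM at day 3 and 2.57, 1.0, 2.23 and 2.64 at day 7, and its XAV939 libraries at 26.3, 23.8, 19.1 and 12.2 and at 7.35, 2.27, 2.97 and 1.73. The days did not overlap in either arm. The log2 fold change was -3.53 (SE 0.55, adjusted p 8.42e-07, edgeR) untreated and -2.51 (SE 0.52, adjusted p 7.32e-05, edgeR) with XAV939. Ndufv3 (chr17:31520115-31531331), an accessory subunit of the NADH-binding module, was next, at 85.0 ± 12.5 CPM at day 3 and 34.9 ± 2.77 at day 7 untreated (SD, n = 4) and 96.8 ± 15.8 and 40.3 ± 3.01 with XAV939, log2 fold changes of -1.29 and -1.26. Ndufa4, whose protein is now assigned to complex IV although its symbol places it here, fell in both arms (-0.43 and -0.81).

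Complex II is encoded in the nucleus alone, and 3 of its 4 genes were lower in each arm. Sdhd (chr9:50596357-50603812), a membrane anchor, fell from 229 ± 48.6 to 125 ± 5.45 CPM untreated and from 274 ± 71.2 to 121 ± 3.69 with XAV939 (log2 fold changes -0.87 and -1.18). Sdhb, the iron-sulfur subunit, changed by -0.64 and -0.77, and Sdha, the flavoprotein that oxidises succinate, by -0.22 and -0.31. Sdhc, the other anchor, was not called in either arm (-0.11 and -0.15). Sdhc stood at 131, 113, 102 and 98.0 CPM in untreated libraries 1 to 4 at day 3 and at 123, 95.9, 93.5 and 99.3 at day 7, so the days overlapped and library 1 was highest at both. In complex III, 6 of 8 members were lower untreated and all 8 with XAV939. The largest fall there, picked after its values were seen, was that of Uqcr11 (chr10:80402997-80406830), a small supernumerary subunit, from 51.7 ± 14 to 25.7 ± 4.48 CPM untreated and from 57.1 ± 14.1 to 25.3 ± 4.62 with XAV939.

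Complex IV held both the members that all but vanished and members that were not called. Of 16 tested members 13 were lower untreated and 14 with XAV939. Cox7b2 (chr5:71442824-71548205), known as a testis paralogue of Cox7b, had 67 counts over the 4 untreated libraries and 49 over the 4 XAV939 libraries at day 3 and no count in any of the 8 libraries of day 7. Set against a floor of 3 counts over a group, it was at least 23.8-fold lower untreated and at least 18.8-fold lower with XAV939. Such a member lies below the medians above at its bound as well. Cox6a2, the paralogue of heart and skeletal muscle, had 93 counts over 8 libraries at day 3 and 7 over 8 at day 7, and was called lower in both arms. Cox7a1 (chr7:30184144-30186078), also a muscle paralogue, stood at 5.20, 4.26, 4.25 and 4.14 CPM in untreated libraries at day 3 and at 1.25, 1.73, 1.34 and 1.05 at day 7, with no overlap (log2 fold change -1.73, SE 0.24, adjusted p 9.58e-08, edgeR). With XAV939 it changed by -1.83.

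Beside these paralogues, the list of 10 heart and skeletal muscle markers summed to 58.8 to 106 CPM at day 3, of which Actc1 made up most (median 56.6 CPM), to 6.04 to 26.3 at day 6 and to 13.1 to 84.4 at day 7. Its members went both ways: of the 7 tested, 3 were higher and 2 lower at day 7 than at day 3 untreated, and 2 higher and 3 lower with XAV939. Among all genes, 34.7% and 36.8% were higher and 32.6% and 34.1% lower. Actc1 had a median of 3.86 CPM at day 7, while Myh7, a heavy chain of slow muscle, had medians of 0.626 at day 3 and 17.5 at day 7, and Tnnt2, a heart troponin, of 0.726 and 2.9. Of other defining genes, Nppa was at 0 in 34 of 40 libraries, Myog in 32 and Ckm in 12. The 3 testis germ cell markers measured (Prm1, Prm2 and Tnp1) summed to at most 0.122 CPM in any library. The part of other cell types in these changes was not tested.

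The other members of the paralogue sets had smaller fold changes. Cox7a2 changed by -0.72 and -1.17 and Cox7a2l, which joins complexes III and IV into supercomplexes, by -0.91 and -1.25. Cox6a1 changed by -0.54 and -0.64 and Cox6b2, known from testis, by -0.87 and -0.59. Cox6b1 was called with XAV939 alone (-0.50, and -0.15 untreated), and no member was called in the test for a difference in the XAV939 effect between these days. Cox4i1, the common form of subunit 4, was not called (-0.38 and -0.40, adjusted p 0.0878 and 0.0712, edgeR). Its paralogue Cox4i2, known for its use in lung and in low oxygen, was not called either (0.42 and 0.86), but did not stay level between these days.

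In the ATP synthase 10 of 17 members were lower untreated and 14 with XAV939. Atp5b (chr10:128083273-128090391), the most abundant nuclear member, stood at 2010, 1840, 1970 and 1790 CPM in untreated libraries at day 3 and at 1350, 1220, 1160 and 1170 at day 7, and at 2050, 2000, 2290 and 1950 and then 1240, 1140, 1120 and 1160 with XAV939. No library of day 7 reached any of day 3. Its log2 fold changes were -0.64 (SE 0.09, adjusted p 4.09e-07, edgeR) and -0.83 (SE 0.10, adjusted p 1.96e-09, edgeR). Atp5a1 changed by -0.77 and -0.91. The 3 genes for the same c subunit of the rotor ring changed by -0.67 and -0.86 (Atp5g1), -0.54 and -0.60 (Atp5g2) and -0.51 and -0.69 (Atp5g3). Atp5l, a subunit of the dimer interface, changed most, by -1.38 and -1.44. Copies at 99% identity or more elsewhere in the genome cover 57.4% of its transcript, and 100% of that of Atp5g2, and the counts of both are uncertain.

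**Figure D3:**
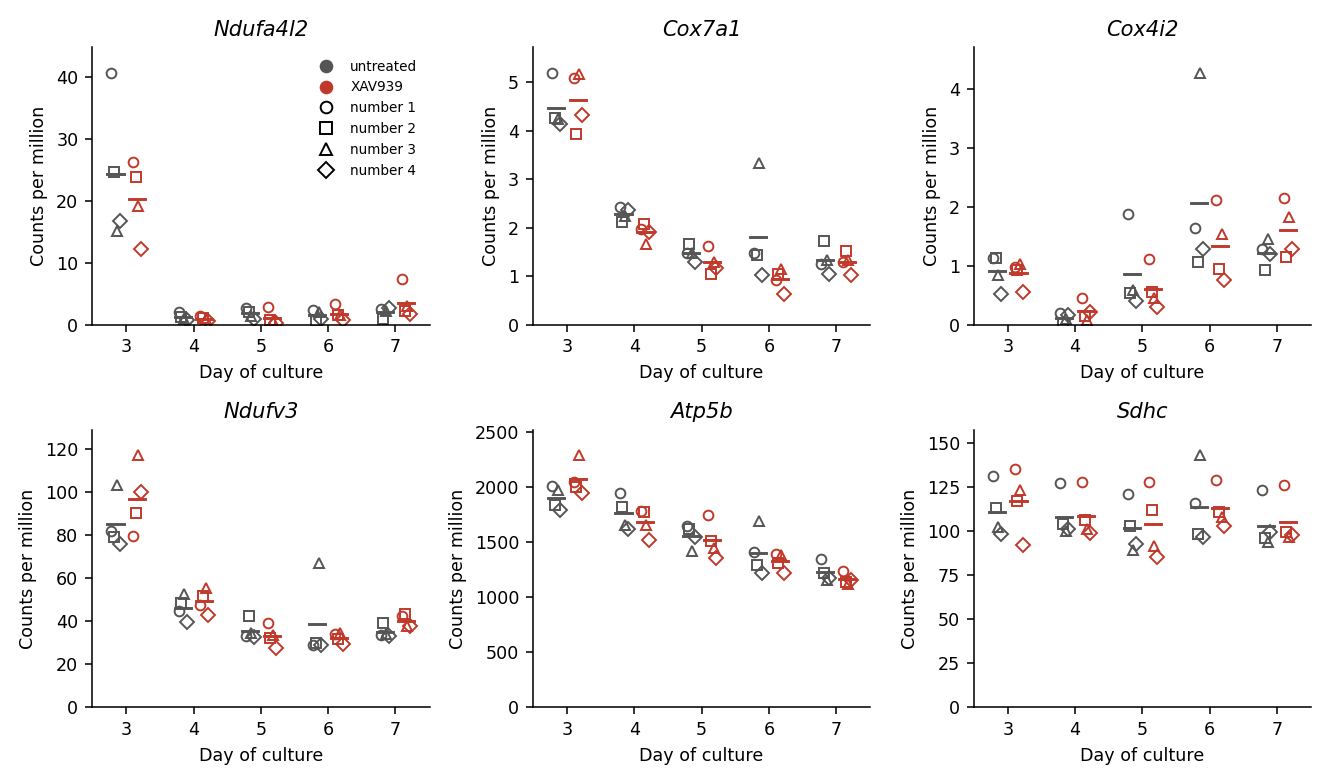
CPM of 6 nuclear members by day; each point is a library, lines are group means, colours give the arm and shapes the replicate number. Ndufa4l2 drops between days 3 and 4, Cox4i2 is lowest at day 4, Atp5b steps down day by day, and number 1 of Sdhc is high at most days.

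The nuclear fall was not spread evenly over the days. Over both arms, 44 of 82 nuclear members were lower at day 4 than at day 3 and 0 higher (DESeq2 also 0), where 23.8% of all genes were lower and 27.3% higher. From day 4 to day 5, 1 was higher and 6 lower (21.4% and 19.8% of all genes), from day 5 to day 6 1 was higher and 5 lower (16.9% and 15.9%), and from day 6 to day 7 0 were higher, also by DESeq2, and 16 lower (11.3% and 13.2%). The counts of the last steps rested on single libraries. Without day 6 untreated library 3 the day 5 to day 6 step called 21 members and the day 6 to day 7 step 5. Without day 6 untreated library 4 the latter step called 44. The shares of all genes called without these libraries are not given here. Ndufa4l2 made its whole fall in the first step (log2 fold change -4.31, SE 0.41, adjusted p 8.72e-11, edgeR), from 22.3 ± 8.92 CPM over the 8 libraries of day 3 to 1.13 ± 0.478 at day 4. Cox7b2 went from 116 counts over 8 libraries at day 3 to 58, 9, 1 and 0 at days 4 to 7. Atp5b was lower at each of the 4 steps (log2 fold changes -0.21, -0.16, -0.18 and -0.19).

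Cox4i2 was the only nuclear member called higher at any step. It went from 0.891 ± 0.241 CPM at day 3 to 0.175 ± 0.129 at day 4, 0.730 ± 0.527 at day 5, 1.70 ± 1.12 at day 6 and 1.41 ± 0.391 at day 7 (SD, n = 8). The drop (-2.40, adjusted p 5.34e-06, edgeR) and both rises (2.08, adjusted p 7.88e-05, and 1.20, adjusted p 0.00508, edgeR) were called. All 8 libraries of day 4 lay below all 8 of day 3; the highest library of day 6, 4.27 CPM, was untreated library 3. Of a list of 14 hypoxia response genes, 11 were lower and 0 higher in the step from day 3 to day 4 (median -1.84). Among all genes, 23.8% were lower and 27.3% higher in that step. In the steps to days 5 and 6, at which Cox4i2 rose, 4 of the 14 were higher and 3 lower (median -0.04) and then 7 higher and 1 lower (median 0.42). In the step to day 7, at which Cox4i2 was not called, 8 were higher and 0 lower. All genes had 21.4%, 16.9% and 11.3% higher and 19.8%, 15.9% and 13.2% lower in these steps. The part of the hypoxia response in the course of Ndufa4l2 and Cox4i2 was not tested.

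The mitochondrial genes had median fold changes below 0 at day 7 as well, but few passed the test. Of 10 tested, 2 were lower untreated (mt-Nd6 and mt-Co3) and 5 with XAV939 (mt-Co1, mt-Nd1, mt-Nd2, mt-Nd6 and mt-Co3), 0 higher in each, by edgeR and by DESeq2, where 32.6% and 34.1% of all genes were lower. Median log2 fold changes were -0.69 and -0.90. mt-Nd3, mt-Nd4l and mt-Atp8 did not pass the filter. Untreated, none of the abundant genes (mt-Co1, mt-Nd1, mt-Nd2, mt-Nd4, mt-Nd5 and mt-Cytb) was called. The 2 called there were mt-Co3, with at most 31 counts in a library, and mt-Nd6, uneven at day 3 as given below. mt-Co1 stood at 7940, 14200, 19900 and 15800 CPM in untreated libraries 1 to 4 at day 3 and at 7160, 9290, 10300 and 8980 at day 7, and at 8970, 14500, 18900 and 28600 and then 4760, 8460, 9340 and 9750 with XAV939. The days overlapped in each arm, but each day 7 library lay below the day 3 library of the same number. The log2 fold change was -0.69 (SE 0.36, adjusted p 0.084, edgeR) untreated and -1.14 (SE 0.36, adjusted p 0.00557, edgeR) with XAV939. mt-Nd1 changed by -0.69 (not called) and -1.12. With XAV939 it and mt-Nd6 were the 2 mitochondrial genes whose days did not overlap, as 31.0% of all genes were lower without overlap, and untreated there were 0. By number, 7 of the 10 genes untreated and 10 of 10 with XAV939 were lower at day 7 in all 4 numbers. mt-Cytb was lower in 2 of 4 numbers untreated and 4 of 4 with XAV939 (-0.08 and -0.59, not called).

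The test of these genes rested on whether the replicate number was taken into account. With the number as a block over all days, 6 mitochondrial genes were lower untreated and 8 with XAV939. With total counts in place of TMM 1 and 2 were. The share of all genes lower under the block is not given here, so the larger counts are not read as particular to mitochondrial genes. In the single steps, mt-Atp6, mt-Co3 and mt-Nd6 were lower at day 4 than at day 3 (log2 fold changes -0.97, -0.59 and -0.59; 3 of 10, where 23.8% of all genes were lower), 0 at total counts and 5 with the block. Of the 3, mt-Atp6 and mt-Co3 have few counts, and the main test called none of the abundant genes at this step. No mitochondrial gene was called at the later steps by edgeR or DESeq2, nor at an unadjusted p below 0.05 by edgeR (0 of 10 each). mt-Nd6 was uneven, with 85.2 CPM in untreated library 1 of day 3 against 15.6, 31.9 and 23.1 in the others.

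The make-up of the mitochondrial reads also changed between day 3 and the later days, though not clearly in every gene. On the heavy strand, mt-Nd1, mt-Nd2 and mt-Co1 lie nearer to the start of the long precursor and mt-Nd4, mt-Nd5 and mt-Cytb further from it. The ratio of the counts of the latter 3 to those of the former 3 was 0.338 to 0.418 in the 8 libraries of day 3, 0.472 to 0.560 at day 4, 0.519 to 0.595 at day 5, 0.435 to 0.596 at day 6 and 0.505 to 0.562 at day 7. All 8 libraries of day 3 lay below the 32 of later days, of which the lowest was day 6 untreated library 3. This ratio was chosen after the values were seen and is given without a test. Of the reads of these 6 genes, mt-Cytb took 13.2% ± 0.549 at day 3 and 17.4% ± 0.763 at day 7 (SD, n = 8), and mt-Co1 44.9% ± 2.34 and 39.9% ± 1.18. mt-Cytb, shown above to have no identical window in its nearest copy, did not overlap between day 3 (12.1% to 13.9%) and day 4 (16.2% to 17.4%). mt-Nd5 did overlap between these days (7.68% to 11.7% and 9.86% to 12.3%). mt-Nd2 took 8.75% ± 0.746 at day 3 and 8.25% ± 0.233 at day 7. The ratio of mt-Nd5 to mt-Nd1 alone was 0.414 to 0.585 at day 3 and 0.544 to 0.784 at day 4, with overlap. It was as low as 0.294 at day 6. The level of mt-Nd4 is uncertain, as given above.

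**Figure D4:**
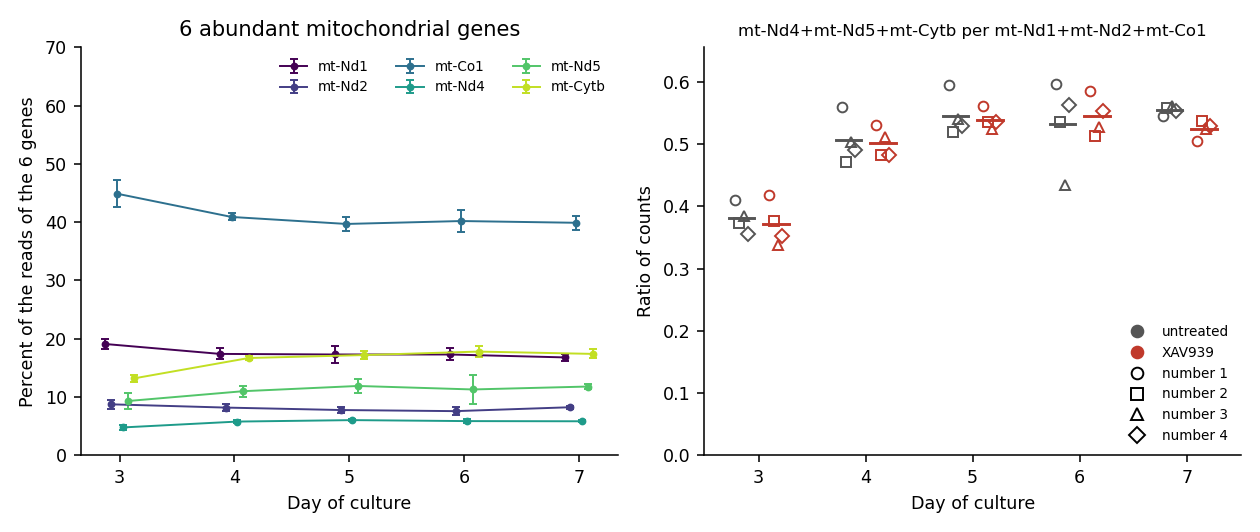
Left, share of the reads of 6 abundant mitochondrial genes taken by each (mean ± SD, 8 libraries a day), in chromosome order from dark to light; right, ratio of mt-Nd4, mt-Nd5 and mt-Cytb counts to mt-Nd1, mt-Nd2 and mt-Co1 counts in each library, with group means as lines. The ratio is 0.338 to 0.418 at day 3 and 0.435 or more later.

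XAV939 left almost no member called at any day. Compared with untreated aggregates of the same day, 0 of 82 nuclear and 0 of 10 mitochondrial members were called at days 3, 4, 5 and 7 by edgeR or by DESeq2, where 0.00592%, 0.0178%, 2.34% and 0.00592% of all genes were. At an unadjusted p below 0.05 there were 3 nuclear members at day 3 (Atp5j 0.29, Uqcrb 0.35 and Uqcrc2 0.28) and 0 at days 4, 5 and 7, and 0 mitochondrial ones at all 4. The members with the smallest p were mt-Atp6 at day 4 (-1.14, SE 0.60), Ndufs8 at day 5 (-0.39, SE 0.24) and Ndufa4l2 at day 7 (0.76, SE 0.52). Nuclear medians were 0.18 at day 3 (74 of 82 above 0), 0.00 at day 4, -0.07 at day 5 (70 below 0) and -0.02 at day 7, and mitochondrial ones 0.12, -0.15, 0.01 and -0.17. At day 3 the nuclear share was 1.12% untreated and 1.23% with XAV939, a difference of 0.114 ± 0.113 percentage points over the 4 pairs of the same number (SD), and at day 7 it was 0.854% and 0.852%, a difference of -0.00228 ± 0.0271. At day 5 it was lower with XAV939 in all 4 pairs, 1.01% against 0.954%, a difference of -0.0596 ± 0.0412 percentage points that was not tested further.

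At day 6, where 4.34% of all genes were called, the only member was Cox7a1, lower with XAV939. Its XAV939 libraries stood at 0.932, 1.05, 1.16 and 0.625 CPM and its untreated ones at 1.47, 1.43, 3.33 and 1.03. The 2 groups overlapped, and untreated library 3 was far above the rest. The log2 fold change was -0.94 (SE 0.24, adjusted p 0.0193, edgeR), and -0.46 (adjusted p 0.337, edgeR) without that library. It was also lost without XAV939 library 1 (adjusted p 0.0634, edgeR) or library 4 (adjusted p 0.118, edgeR). The nuclear median at day 6 was -0.30, with 79 of 82 members below 0, and turned to 0.11 when untreated library 3 of day 6 and untreated library 1 of day 4 were left out. The mitochondrial median was 0.30, and 0.03 without the same 2 libraries. No member was called for a change in its XAV939 effect between day 3 and day 7 (0 of 92 members, and 0.0% of all genes) by edgeR or DESeq2, with 2 members at an unadjusted p below 0.05. A joint test of the 5 effects called 0 members, where 5.8% of all genes were called, and 1 member at an unadjusted p below 0.05 (DESeq2 also 0). With the number as a block within each day it called Cox7a1 (adjusted p 0.0232, edgeR).

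Most mitochondrial genes, and few nuclear members, differed between replicate numbers. The numbers, which recur in every group, were tested on 20 sums of the 2 arms of a day and number, with day in the model. Of 10 mitochondrial genes 8 differed between numbers (mt-Nd1, mt-Nd2, mt-Nd4, mt-Nd5, mt-Co1, mt-Co2, mt-Atp6 and mt-Cytb; adjusted p 0.000236 to 0.00449, edgeR), of 82 nuclear members 3, and of 17478 genes 11.2%. The mitochondrial share was 1.53% ± 0.307 in libraries numbered 1, 2.81% ± 0.264 in number 2, 2.71% ± 0.792 in number 3 and 3.32% ± 0.851 in number 4 (SD, n = 10). Number 1 was the lowest of its group in 9 of 10 groups and number 4 the highest in 7. The exception for number 1 was the untreated group of day 6, where library 3 was lowest. The nuclear share was 0.998%, 0.988%, 1.08% and 0.941% for numbers 1 to 4, and lowest in number 4 in 7 of 10 groups. The labels do not say what a number stands for.

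**Figure D5:**
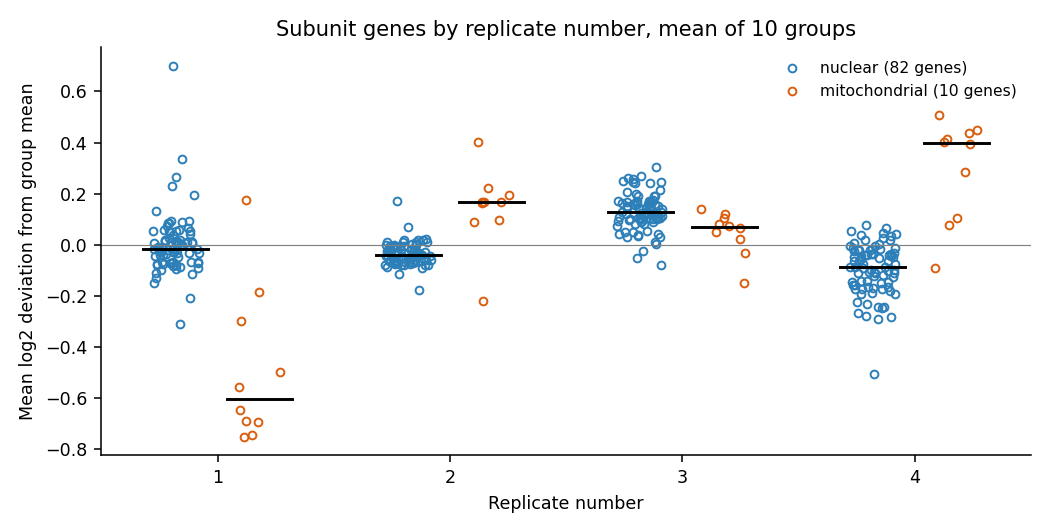
Mean log2 deviation of each tested subunit gene from its group mean by replicate number, over 10 groups; blue points are 82 nuclear genes, orange points 10 mitochondrial genes and bars are medians. For number 1 the mitochondrial median is -0.60 and the nuclear one -0.02, and for number 4 they are 0.40 and -0.09.

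The 3 nuclear members that differed between numbers were highest in number 1, in which 9 of the 10 mitochondrial genes lay below their group means on average and mt-Nd6 above (0.18). Ndufa4l2 deviated from its group mean by 0.70 log2 units in number 1 (above it in 10 of 10 groups) and by -0.50 in number 4 (adjusted p 0.00159, edgeR). Sdhc deviated by 0.23 and -0.16 (adjusted p 0.0151, edgeR) and Uqcrc1, a core protein of complex III, by 0.27 and -0.24 (adjusted p 0.032, edgeR). Uqcrc1 stood at 212, 172, 136 and 162 CPM in untreated libraries 1 to 4 at day 3 and at 119, 106, 92.4 and 111 at day 7, highest in library 1 at both. Leaving out 1 sum at a time left 8 mitochondrial genes each time and 1 to 5 nuclear ones. DESeq2 called 6 nuclear members and the 40 libraries taken singly 16. The latter fit counts the arms of a day and number as separate, although they deviated together. The shares of all genes called in these fits are not given here. Of the mitochondrial genes, mt-Nd6 (adjusted p 0.357, edgeR) and mt-Co3 (adjusted p 0.139, edgeR) were not called.

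Genes that build, translate or feed the chain were counted from lists, in the same comparison of day 7 with day 3. Of 5 subunits whose symbols fall outside the rule, 3 were lower untreated and 5 with XAV939; Cyc1, the haem subunit of complex III, fell from 300.0 ± 31.1 to 160 ± 7.86 CPM untreated (log2 fold change -0.91). Of 78 mitochondrial ribosome proteins 41 and 51 were lower. These and the other list counts are to be read against all genes, with 32.6% and 34.1% lower and 34.7% and 36.8% higher. Of 20 genes of the tricarboxylic acid cycle and pyruvate dehydrogenase 13 and 14 were lower and 1 and 2 higher. Assembly factors were more mixed: of 15 for complex I, 5 and 7 were lower and 1 and 1 higher, of 19 for complex IV, 6 and 10 lower and 3 and 3 higher, and of 13 for complexes II, III and V, 2 and 6 lower and 3 and 2 higher. Ndufaf3 and Ndufaf7, both for complex I, changed by -2.0 and -1.51 untreated, and Cox20, which handles the copper-bearing subunit of complex IV, by 1.06.

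For the expression of mitochondrial DNA itself, 14 genes of transcription and replication had 5 and 9 lower and 1 and 1 higher. The counts here stand beside 32.6% and 34.1% of all genes lower and 34.7% and 36.8% higher. Tfam, which packs and helps transcribe mitochondrial DNA, was at 126 ± 14.9 CPM at day 3 and 106 ± 7.85 at day 7 untreated (SD, n = 4), and Polrmt, the RNA polymerase, at 12.1 ± 3.23 and 12.7 ± 1.54. Of 19 genes of mitochondrial RNA stability and processing 10 and 13 were lower and 2 and 2 higher. Lrpprc, which stabilises mitochondrial mRNAs, fell from 315 ± 8.83 to 180 ± 8.44 CPM untreated and from 305 ± 29.3 to 167 ± 10.8 with XAV939 (log2 fold changes -0.81 and -0.86).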

How the data were processed

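RNA of 40 aggregate libraries had been prepared by the submitters as poly(A)-selected stranded libraries and sequenced as paired reads of 81 bases, per the labels' protocols. The authors deposited whole-number counts of reads for every gene in each library; mm10 and bcl2fastq 2.20.0 are named in the submitters' processing notes, and the sources used here name no aligner, counter, annotation or strand setting, so that overlapping genes and near-identical copies may share or lose reads. All 97 members matched GENCODE M21 by Ensembl identifier (26881 of all identifiers matched, 25 did not).

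Counts were tested with edgeR 4.0.16 (R 4.3.3, limma 3.58.1; TMM, filterByExpr with a minimum count of 10 and total of 15, robust quasi-likelihood F tests, 30 residual degrees of freedom) in 1 model of 10 groups over 16878 genes, with Benjamini-Hochberg adjusted p below 0.05 as the call. The replicate number was tested on 20 sums. Same-numbered libraries of the arms of a day deviated together in every pair (correlations of deviations 0.145 to 0.523, and 20 of 20 libraries correlated best with their own number), so the numbers pair libraries within a day; between neighbouring days correlations ran from -0.133 to 0.552. Alternatives were RLE size factors, total counts, mitochondrial genes left out of library sizes, no filter, DESeq2 1.42.0, replicate blocks, length and GC offsets, and leaving out each library. The fit was also run on simulated counts with set changes, drawn separately for each library. Those counts held no random deviation shared by the arms of a number and no trend with length. The outcome is not given here, so no support is drawn from it. The total count per library, 30197759 to 44086019, limits the precision for genes with few counts. Members named are the mitochondrial genes, up to 6 largest changes called per comparison, the paralogue sets, the Sdh genes and the 3 highest and lowest nuclear members per kilobase. The members and gene lists were chosen with earlier results of these data known.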

Additional observations from a re-analysis of the deposited data

Results flagged for a closer look

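Among independent values chance would set 1 of 4 libraries far from the other 3 in about 1 in 20 groups. The groups of values of the members share libraries, so their number was not tested against that rate. Such a library was held by 35 of 290 groups of values. Of these, 13 were in day 6 untreated library 3, all high: the nuclear share of counts was 1.61% there and 0.838% to 0.903% in the other 3, and the CPM values were 190 for Atp5g1, 218 for Atp5g2, 433 for Cox4i1, 102 for Cox6a1, 335 for Cox6b1, 303 for Cox7a2, 184 for Cox7a2l, 240 for Cox7b, 119 for Cox8a, 366 for Ndufa4, 154 for Sdhb and 227 for Sdhd. In the XAV939 group of day 6, library 3 was also high for Cox7a2 (165 CPM), Ndufa4 (212) and Sdhd (155).

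Library 1 was low in mitochondrial genes in a pair of groups. In untreated day 4 its mitochondrial share was 1.53% against 2.99% to 3.27%, with mt-Nd2 at 1130 CPM and mt-Nd4 at 956. In XAV939 day 7 its share was 1.21% against 2.41% to 2.51%, with mt-Nd1 at 1880 CPM, mt-Nd2 at 925, mt-Nd4 at 640 and mt-Cytb at 1810. In the same libraries Sdhc was high, at 127 and 126 CPM.

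The remaining values each stood alone. mt-Nd6 was high in day 6 untreated library 1 (26.8 CPM) and low in day 7 XAV939 library 4 (11.9). In day 3 XAV939 library 3 Cox4i1 (267) and Cox8a (138) were high, and in day 4 XAV939 library 4 Cox4i1 (155) and Atp5g1 (91.3) were low. Cox7a1 was high in day 3 untreated library 1 (5.20), Cox4i2 in day 5 untreated library 1 (1.88) and Sdhb in day 7 untreated library 2 (80.2).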

How the results depend on the processing

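Of 674 alternatives to the counts and shares reported, 612 stayed within 1.5 times the count or within the spread between replicates, and none turned the direction of a called result. Counts of 0 that stayed at 0 are among the 612. The ratios were scored only as staying or moving, so no turned direction could be found for them in this way. Among values with no call of their own, the median over a set of members changed sign in 35 of 464 alternatives, and the group mean of the log2 ratio of mitochondrial to nuclear counts, less the mean over all libraries, in 11 of 60; for day 6 untreated it was -0.405 and ran from -0.685 to 0.163 with 1 library left out. Of 10168 alternatives for single genes, 179 lost a call, 116 gained one and 0 turned a called direction. For mitochondrial genes lower at day 7 than at day 3 (2 untreated, 5 with XAV939), total counts gave 1 and 2, the replicate block over all days 6 and 8, and this block with length and GC offsets 5 and 9. For the step to day 4 (3 mitochondrial genes) they gave 0, 5 and 6, no filter 1, and leaving out day 6 untreated library 3 with day 4 untreated library 1 also 1. The replicate block called 1 mitochondrial gene at the step to day 5, and the offsets 3 there and 1 at the step to day 6. For nuclear members the offsets gave 13 at the step to day 5 and 10 at that to day 6, and leaving out the 2 libraries gave 11, 27 and, at the step to day 7, 5; total counts gave 10 at the last. Without those libraries 66 and 76 nuclear members were lower at day 7 than at day 3. For XAV939 at day 6 the replicate block within each day with offsets called 2 nuclear members and leaving out the 2 libraries 0; the joint test of the 5 effects called 1 with that block and 2 (Cox7a1 and Uqcrb) with offsets. The number itself called 6 nuclear members by DESeq2 and 16 over 40 libraries with the replicate block, where arms that deviate together count as separate. The replicate block changed no other of these counts by over 1.5 times. Shares of all genes called under these alternatives are not given in this section.

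Leaving out 1 library at a time gave ranges of 1 to 2 and 2 to 5 mitochondrial genes at day 7 against day 3, 0 to 4 at the step to day 4, and, for nuclear members, 42 to 55 and 61 to 69 at day 7 against day 3, 3 to 21 at the step to day 6, 5 to 44 at the step to day 7, 0 to 5 for XAV939 at day 6, 0 to 1 for the joint test and 1 to 5 for the number. Except for the counts that follow from fewer libraries, the cause of each change was not tested. A block within each day was not run for comparisons of days, since day by number terms leave no spread between numbers in their error; blocks over all days and the fit without 2 libraries were chosen after seeing the data. Depth limits the paralogues under 1 CPM and the mitochondrial genes with under 50 counts.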

Other observations

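Regulators of mitochondrial genes moved in both directions from day 3 to day 7. Of 14 listed, 6 were lower and 3 higher untreated, and 7 lower and 4 higher with XAV939 (edgeR, adjusted p below 0.05). Among all genes, 32.6% were lower and 34.7% higher untreated, and 34.1% lower and 36.8% higher with XAV939. Esrrb, an orphan nuclear receptor of pluripotent cells that also binds genes of energy metabolism, fell from 16.2 ± 9.05 to 1.35 ± 0.158 CPM untreated (SD, n = 4), and Ppargc1b, a coactivator of mitochondrial genes, from 4.31 ± 1.07 to 1.05 ± 0.167. Esrrg, a relative of Esrrb, rose by 2.54 log2 units untreated and 3.02 with XAV939. Ppargc1a, a relative of Ppargc1b, had low levels that went the other way from Ppargc1b. It stood at 0.205 ± 0.0354 CPM at day 3 and 0.506 ± 0.102 at day 7 untreated, and at 0.233 ± 0.0498 and 0.905 ± 0.147 with XAV939. Myc rose by 1.16 log2 units untreated. Nrf1, the factor whose motif was found in 8 member promoters, was at 83.0 ± 1.72 and 77.1 ± 4.59 CPM.

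Of 14 hypoxia response genes 8 were lower and 2 higher untreated at day 7, and 8 lower and 4 higher with XAV939. These counts and those of the stress genes below stand beside 32.6% and 34.1% of all genes lower and 34.7% and 36.8% higher. Egln3, which marks hypoxia-inducible factors for decay, changed by -2.90 and -2.80, Car9, a membrane carbonic anhydrase, by -2.79 and -2.03, Ndrg1 by -3.60 and -3.63, and Ldha, which turns pyruvate into lactate, by -1.27 and -1.19. Of 17 genes of the integrated and mitochondrial stress response 10 and 11 were lower and 1 in each arm higher. The secreted factors Gdf15 (-4.04 and -5.95) and Fgf21 (-3.23 and -3.97) and the mitochondrial chaperone Hspa9 (-1.11 and -1.24) were among the lower, and the transcription factor Atf5 (2.03 and 1.74) was the higher one.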
